A study of Homo sapiens with 12 samples.

Results

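The genes described here serve homologous recombination, the Fanconi anemia pathway and the DNA damage checkpoint. They were taken as a list of 34 symbols. A member counted as measured where some probe set was listed with its symbol alone; of several such probe sets, the brightest on average over the 12 arrays was used. This gave 30 measured members among the 19775 genes of the table. BRCA2, RBBP8, FANCA and FANCD2 had no probe set of this kind and were not analysed here.

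The cells were U937, an established human myeloid leukemia line. Expression was measured on 12 arrays in 4 groups of 3 biological replicates: U937 cells given the DMSO vehicle, and U937 cells given JS-K for 90 min, for 4 h or for 24 h. JS-K is a diazeniumdiolate prodrug that releases nitric oxide inside cells. Neither the dose nor the exposure time of the vehicle cells is in the labels. There was 1 vehicle group for all times, so time in culture and JS-K cannot be told apart, and all comparisons with vehicle share the same 3 arrays. P-values here reflect only the variation among these 12 samples. In bulk RNA, fewer cells that express a gene and less of its RNA per cell cannot be told apart.

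Homologous recombination repairs a double-strand break, or restarts a broken replication fork, by copying the sister chromatid. Nucleases cut back the broken end, and BRCA1, PALB2 and BRCA2 prepare the single strand for exchange with the sister. The Fanconi core complex attaches ubiquitin to FANCI and FANCD2 at crosslinked DNA, and the kinases ATM and ATR, with CHEK2 and CHEK1 downstream of them, halt the cell cycle while repair proceeds. Many of these genes are expressed mainly in S and G2 phase, from promoters that are known to hold E2F and CCAAT elements.

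The promoter windows of 4 members are shown because they carry those elements and belong to genes that behaved differently: MSH6, BLM and RAD54L were lower at 24 h, and RAD51AP1 was not called at any time. They were chosen after the values were seen. Each is the 120 bases before the annotated start, 5′ to 3′ on the gene's strand, from RefSeq on GRCh38.p14. Capitals mark the E2F-type motif TTCCCGC and the CCAAT box motif ATTGG, each read on either strand. The windows lie at chr2:47783025-47783144 for MSH6, chr15:90717226-90717345 for BLM, chr1:46247568-46247687 for RAD54L and chr12:4538770-4538889 for RAD51AP1, all on the plus strand.
MSH6: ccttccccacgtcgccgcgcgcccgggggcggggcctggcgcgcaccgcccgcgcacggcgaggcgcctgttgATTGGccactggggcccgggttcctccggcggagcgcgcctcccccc
BLM: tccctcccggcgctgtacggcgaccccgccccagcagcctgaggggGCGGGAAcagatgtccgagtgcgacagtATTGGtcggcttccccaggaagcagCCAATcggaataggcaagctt
RAD54L: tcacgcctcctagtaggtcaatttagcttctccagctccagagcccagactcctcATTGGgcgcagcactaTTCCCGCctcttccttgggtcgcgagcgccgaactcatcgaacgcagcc
RAD51AP1: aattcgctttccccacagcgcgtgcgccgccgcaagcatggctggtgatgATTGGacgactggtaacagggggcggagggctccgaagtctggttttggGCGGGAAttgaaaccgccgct

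Of the 30 members, 21 had a window of 250 bases before to 50 after their outermost start. TTCCCGC was present on either strand in 11 of the 21 windows (52.4%), against 6.50% of the windows of 24884 genes and 8.70% of those of 13819 protein-coding genes. A second E2F-type motif, TTGGCGC, was in 2 of the 21 (9.52%) against 3.08% of all windows; it can share bases with ATTGG. One or the other E2F-type motif was in 12 of the 21 (57.1%), against 9.21% of all windows. ATTGG was in 10 of the 21 (47.6%) against 36.1% of all, and the cell cycle homology motif TTTGAA in 3 of the 21 (14.3%) against 15.7%. Either E2F-type motif was in 8 of the 16 windows of members lower at 24 h and in 4 of the 5 windows of members that were not. RAD51AP1, which was not called, carried the same 2 kinds of element as BLM and RAD54L. In MSH6 the E2F-type motif began 5 bases after the start and so lies outside the stretch shown. These are matches of letters and no binding was measured.

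Levels are the authors' deposited log2 values, so a difference of 1 is a 2-fold change, and a group mean under 4 is called low signal here, since about 62.0% of probe sets lie there on each array. Arrays of 1 group correlated at 0.993 to 0.998 and arrays of different groups at 0.973 to 0.995. For the poly-A spike-in RNAs, the mean of their probe sets was 7.02 at 4 h and 8.47 at 24 h, against 3.04 in vehicle and 3.08 at 90 min. The presence of these spike-ins and the JS-K time therefore cannot be told apart in the comparisons of 4 h or 24 h with vehicle and of 4 h with 90 min, while the comparisons of 90 min with vehicle and of 24 h with 4 h lie on 1 side of that split. Of 10 myeloid markers listed, 8 were measured and 6 were at 4 or more on all 12 arrays, and these 6 fit the labelled cell type. MPO, a granule enzyme of early myeloid cells, was under 4 throughout, and CSF1R, a monocyte receptor, was as low as 3.60. The markers of T, B, erythroid and epithelial cells that were measured, 9 in all, were under 4 on all arrays. Of 3 fibroblast markers COL1A2 and DCN were under 4 and COL1A1 was between 5.09 and 5.37 in every group. The summed myeloid level was 67.8 in vehicle, 69.0 at 90 min, 70.0 at 4 h and 74.5 at 24 h. From vehicle to 24 h CSF1R went from 4.19 to 6.99, SPI1 from 5.75 to 7.33 and PTPRC from 10.22 to 11.81. LYZ, ITGB2, CD4 and MPO changed less, and CEBPA fell from 10.70 to 10.40. ITGB2 and CD4 were lower at 4 h, at 11.88 and 8.34 against 12.19 and 8.77 in vehicle. The part of these changes in the results below was not tested.

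Most members were lower after 24 h of JS-K. In limma with Benjamini-Hochberg adjustment over all 19775 genes, 23 of the 30 fell, 1 rose and 6 were not called, with a median difference from vehicle of -0.85. Over all genes 18.9% were called lower and 17.8% higher, with a median of 0.06. The share of all genes higher was 52.0% without 4 h replicate 2, while the share lower ranged from 16.7% to 21.3% when 1 array at a time was left out. Among the 9551 genes with a mean of at least 4 the share called lower was 37.1%, against 22 of the 27 members at that level. A fall of at least 2-fold was called in 11 members, against 7.09% of all genes. RAD54B, BRIP1 and CHEK2 were only just past it, each at -1.01. Leaving out 1 array brought them to as little as -0.97, -0.90 and -0.96. The 3 arrays at 24 h lay wholly below the 3 vehicle arrays in 24 members and wholly above in 1; groups did not overlap in 82.3% of all genes.

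The shift was smaller earlier. After 90 min 4 members were lower (BRIP1, MRE11, FANCF and ATM) and none higher, with a median of -0.16; 5.62% of all genes were called lower and 4.03% higher. Leaving out 1 array at a time gave 3.19% (without 90 min replicate 2) to 7.83% (without 4 h replicate 2) of all genes lower at 90 min, with 3.62% without vehicle replicate 3. At an unadjusted p under 0.05, 10 members were lower and 1 higher at 90 min, against 2169 lower and 1510 higher of all 19775 genes. After quantile normalization the 90 min split was 6 lower and 1 higher. By 4 h 14 members were lower and 1 higher, with a median of -0.28, against 16.6% of all genes lower and 23.9% higher; leaving out 1 array at a time, the share of all genes lower ranged from 11.6% to 19.1% and the share higher from 5.67% (without vehicle replicate 3) to 41.2% (without 4 h replicate 3). The 14 members that were lower at 4 h were all lower at 24 h too, and 9 more were lower at 24 h without a call at 4 h. Among the 27 members with a mean of at least 4, 3 were lower at 90 min and 13 at 4 h, against 10.5% and 32.4% of all genes at that level. A fall of at least 2-fold was called at 4 h in 2 members, FANCF and CHEK2, against 2.79% of all genes. CHEK2 was at -1.02 there, and at -0.78 without 4 h replicate 2, which is under 2-fold. Arrays did not overlap vehicle, below or above it, in 14 and 3 members at 90 min and in 16 and 2 at 4 h, against 26.9% and 70.2% of all genes. The moderated F test over the 4 groups called 23 of the 30 members, against 38.1% of all genes. These are not the same 23 as the members lower at 24 h. By the F test RAD52, the member that rose, was called (adjusted p = 0.0202) and XRCC2 was not (adjusted p = 0.0508).

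**Figure D1:**
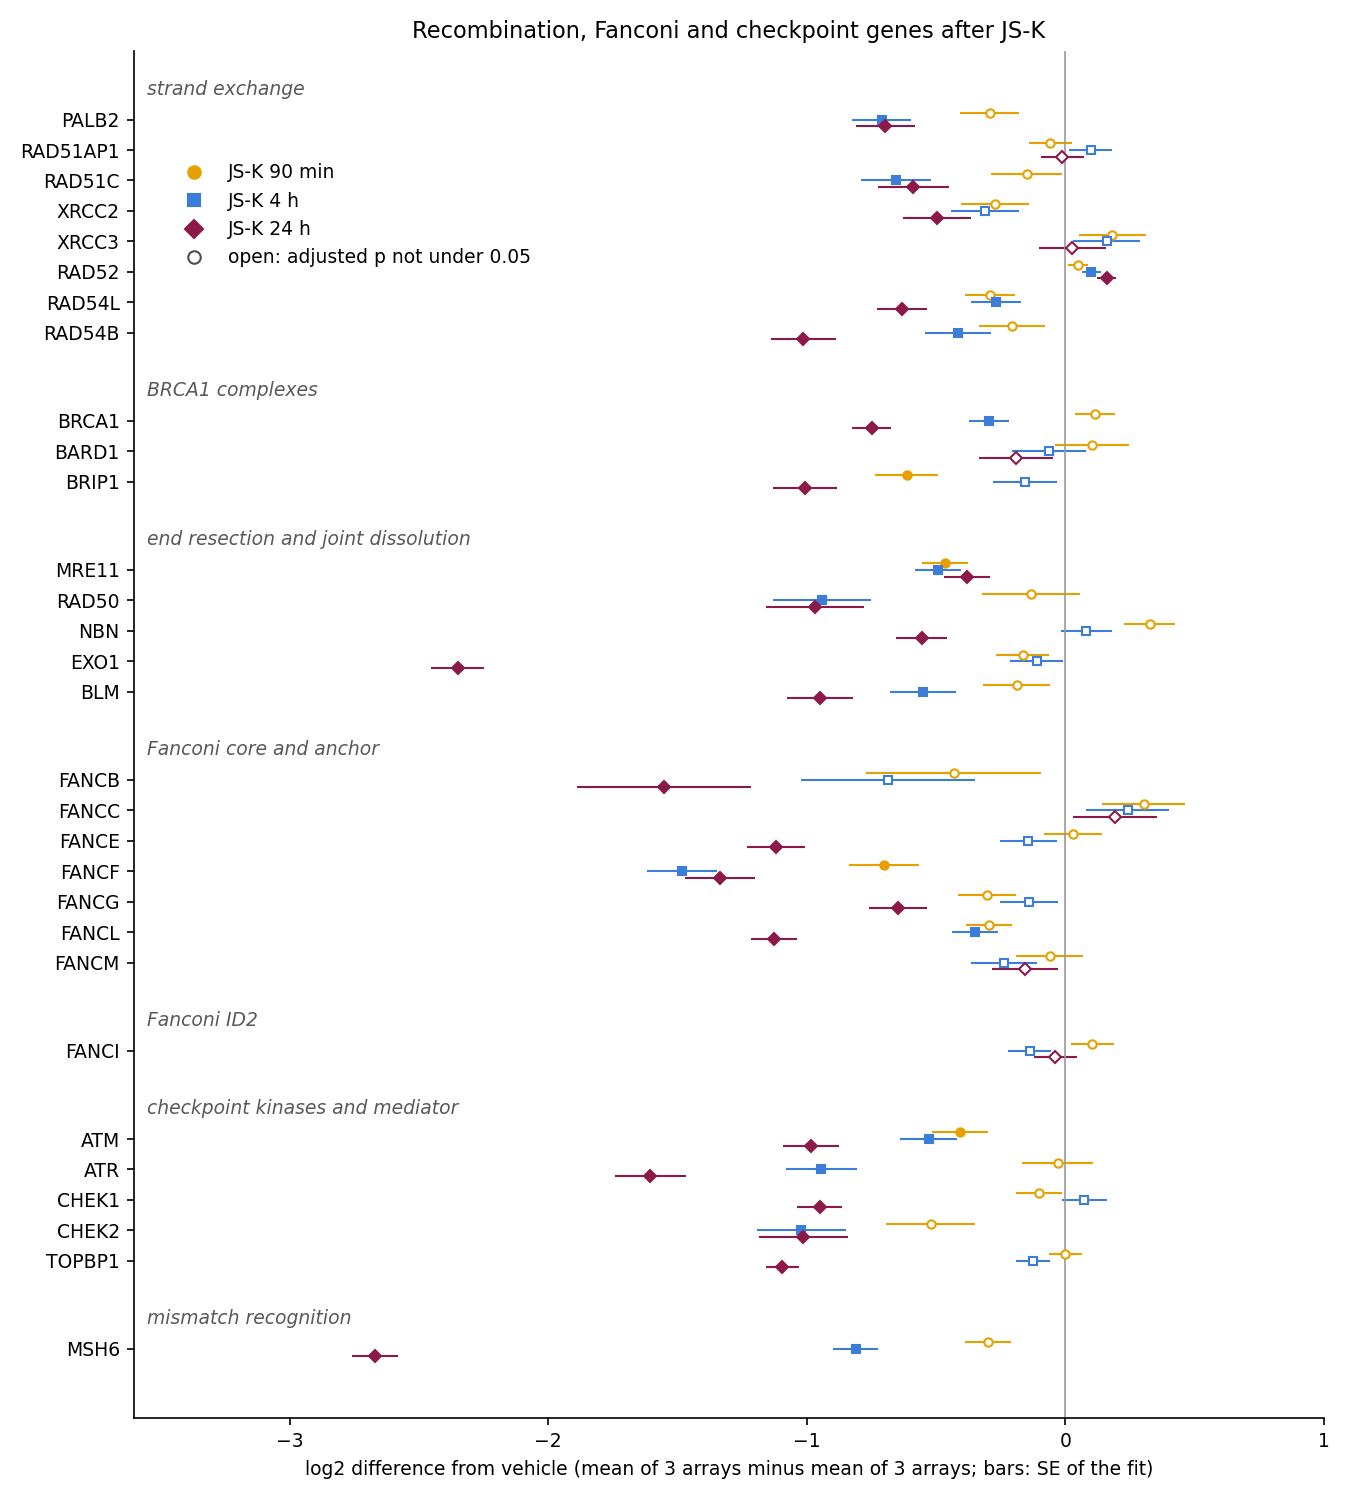
Difference from vehicle for the 30 measured members at 90 min (circles), 4 h (squares) and 24 h (diamonds), on the log2 scale, grouped by role; bars are the SE of the fit over 12 arrays and open symbols were not called at an adjusted p under 0.05. At 24 h 23 members lie below 0 with filled symbols, from MRE11 at -0.38 to MSH6 at -2.67, and RAD52 is the 1 filled symbol above 0.

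Steps between neighbouring times were tested directly. From 90 min to 4 h, 7 members fell (PALB2, RAD51C, BRCA1, RAD50, FANCF, ATR and MSH6) and BRIP1 rose, with 7.25% of all genes lower (4.66% without 90 min replicate 1 and 4.63% without 90 min replicate 3) and 3.33% higher; the split was 6 lower and 2 higher after quantile normalization and 5 lower and 0 higher after subtraction of array medians. From 4 h to 24 h, 15 members fell and none rose, with a median of -0.38, against 10.7% of all genes lower and 12.8% higher. At an unadjusted p under 0.05, 16 members were lower and 0 higher in this step, against 2586 lower and 3199 higher of all 19775 genes. All 15 had a mean of at least 4, where 21.8% of genes were lower, and 3 of them, EXO1, CHEK1 and MSH6, fell at least 2-fold, against 2.67% of all genes. From 90 min to 4 h 6 of the 7 members that fell had a mean of at least 4, against 14.7% of genes at that level lower. The arrays of the 2 times did not overlap in 14 members below and 1 above from 90 min to 4 h (51.7% of all genes) and in 15 below and 1 above from 4 h to 24 h (28.4%). The step from 4 h to 24 h compares arrays that all carry the poly-A spike-ins, though at unequal levels. The hybridization spike-ins also differed there, at 10.21 and 11.70, as did the probe sets for 28S ribosomal RNA, at 6.45 and 8.03, and their part in the result was not tested. Of the 14 members lower at 4 h, 6 showed no further step that was called. From 4 h to 24 h PALB2, RAD51C, RAD50 and CHEK2 differed by 0.01 ± 0.11 (SE), 0.07 ± 0.14, -0.03 ± 0.19 and 0.01 ± 0.17. In each of these members 4 h replicate 2 was the lowest 4 h array. Without it their 4 h differences from vehicle were -0.60, -0.48, -0.70 and -0.78, against -0.70, -0.59, -0.97 and -1.01 at 24 h. The size of these steps therefore depends on that array. MRE11 differed by 0.11 ± 0.09 (adjusted p = 0.577) and FANCF by 0.15 ± 0.13 (adjusted p = 0.658).

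Replicate 2 of the 4 h group bears on these counts. It was the lowest 4 h array in 21 of the 30 members, and in 10 of the 14 that were lower at 4 h. Without it 12 members were lower at 4 h and 6 were lower and 1 higher at 90 min, while the count at 24 h stayed at 23. This array stood apart over all probe sets as well, with an upper quartile of 6.20 against 6.57 and 6.59 on the other 4 h arrays and 6.58 to 6.66 in vehicle. The difference between the 3′ and 5′ control probe sets of ACTB, a sign of RNA quality, was 1.15 on it, 0.81 and 0.93 on the other 4 h arrays and 0.77 to 0.83 in vehicle. At 24 h the ACTB difference was 0.91 to 0.99 and the upper quartile 6.40 to 6.47. The GAPDH difference was 0.11 to 0.14 at 24 h, against -0.01 to 0.02 in vehicle, and -0.15 on replicate 2 of the 4 h group. The part of these measures in the falls at 4 h and 24 h was not tested.

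The factors of strand exchange were mostly reduced. Of 8 measured, 5 were lower at 24 h, 1 was higher and 2 were not called, with a median of -0.54. At 4 h 4 were lower and 1 higher. Over all genes 18.9% were lower and 17.8% higher at 24 h, and 16.6% lower and 23.9% higher at 4 h. Among genes with a mean of at least 4, 37.1% were lower at 24 h and 32.4% at 4 h. RAD54B, a DNA translocase, stood at 8.43, 8.24 and 8.40 in vehicle, 8.32, 8.02 and 8.12 at 90 min, 8.14, 7.66 and 8.03 at 4 h and 7.37, 7.38 and 7.29 at 24 h. All 3 arrays at 24 h lie below every other array. The fall at 24 h was -1.01 ± 0.13 (SE), with a limma adjusted p of 3.21e-05, and the step from 4 h to 24 h was -0.60 (adjusted p = 0.00342). Its call at 4 h (-0.41, adjusted p = 0.0320) was lost without vehicle replicate 1 (adjusted p = 0.105), without vehicle replicate 3, without 4 h replicate 2 (adjusted p = 0.0662) and with the 6 arrays of the comparison alone.

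PALB2, which joins BRCA1 to BRCA2, took another course. Its level was 9.32, 8.97 and 9.06 in vehicle, 8.94, 8.74 and 8.79 at 90 min, 8.47, 8.18 and 8.57 at 4 h and 8.38, 8.47 and 8.42 at 24 h. The groups at 4 h and 24 h overlap each other and lie below vehicle. The differences from vehicle were -0.71 ± 0.11 at 4 h (adjusted p = 0.000664) and -0.70 ± 0.11 at 24 h (adjusted p = 0.000313).

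RAD51C, which acts at stalled forks and in strand exchange, was likewise lower from 4 h on. It read 8.52, 8.51 and 8.59 in vehicle, 8.50, 8.19 and 8.47 at 90 min, 8.005, 7.527 and 8.115 at 4 h and 7.97, 7.94 and 7.94 at 24 h, so that no array at 4 h or 24 h reached the vehicle range. The differences from vehicle were -0.65 ± 0.14 at 4 h (adjusted p = 0.00389) and -0.59 ± 0.14 at 24 h (adjusted p = 0.00426).

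RAD54L, the other RAD54 translocase, and XRCC2, a further strand exchange factor, were lower at 24 h by -0.63 ± 0.10 and -0.49 ± 0.13. The XRCC2 call was lost without vehicle replicate 3 (adjusted p = 0.0547), and the RAD54L call at 4 h (-0.27, adjusted p = 0.0465) was lost in 11 of the 12 fits that left out 1 array. RAD52, an annealing protein, and XRCC3 were under 4 in every group. RAD52 was the 1 member called higher, from 2.38 in vehicle to 2.54 at 24 h, a difference within low signal that was not called after quantile normalization, after subtraction of array medians or with the mean of its probe sets. Its call at 4 h (0.10, limma adjusted p = 0.0495) was lost in 10 of the 12 fits that left out 1 array. It was also lost in every other setting that kept the gene.

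RAD51AP1, which stimulates joint formation, moved least of the members with signal throughout. It read 10.57, 10.58 and 10.52 in vehicle, 10.39, 10.53 and 10.57 at 90 min, 10.54, 10.74 and 10.69 at 4 h and 10.38, 10.59 and 10.67 at 24 h. All 4 groups overlap. The difference at 24 h was -0.01, with a 95% interval of -0.19 to 0.17, so a fall of the size seen in RAD54B lies outside it.

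Among the BRCA1 complexes, BRCA1 and its helicase partner BRIP1 were lower at 24 h and BARD1, the ubiquitin ligase partner of BRCA1, was not called. BRCA1 stood at 8.84, 8.92 and 8.79 in vehicle, 8.98, 8.99 and 8.93 at 90 min, 8.42, 8.63 and 8.62 at 4 h and 8.11, 8.07 and 8.13 at 24 h. The 4 h arrays lie between vehicle and 24 h without overlap. The difference was -0.30 ± 0.08 at 4 h (adjusted p = 0.0140) and -0.75 ± 0.08 at 24 h (adjusted p = 5.35e-06). The 4 h call was lost without vehicle replicate 2 (adjusted p = 0.0575), after quantile normalization and with 6 arrays alone.

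BRIP1 was the 1 member lower at 90 min and at 24 h but not called at 4 h. Its level was 8.44, 8.31 and 8.39 in vehicle, 7.77, 7.69 and 7.84 at 90 min, 8.20, 8.02 and 8.45 at 4 h and 7.54, 7.41 and 7.17 at 24 h. The 90 min arrays lie below all vehicle and all 4 h arrays, and the highest 4 h array reaches above the highest vehicle array. Differences from vehicle were -0.61 ± 0.12 at 90 min (adjusted p = 0.00717), -0.16 ± 0.12 at 4 h (adjusted p = 0.291) and -1.01 ± 0.12 at 24 h (adjusted p = 2.72e-05). The rise from 90 min to 4 h (0.46, adjusted p = 0.0326) was lost in 6 of the 12 fits that left out 1 array, among them the fits without 4 h replicate 1 or 3. BARD1 differed from vehicle by -0.19 ± 0.14 at 24 h, with a 95% interval of -0.50 to 0.12.

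All 5 measured genes of end resection and joint dissolution were lower at 24 h, with a median of -0.95, and 3 of the 5 at 4 h. The share lower among genes with a mean of at least 4 was 37.1% at 24 h and 32.4% at 4 h. Over all genes it was 18.9% and 16.6%. EXO1, the exonuclease that extends resection and also serves mismatch repair, stood at 8.66, 8.58 and 8.55 in vehicle, 8.53, 8.29 and 8.48 at 90 min, 8.50, 8.40 and 8.57 at 4 h and 6.33, 6.35 and 6.07 at 24 h. The 4 h arrays overlap both the vehicle and the 90 min arrays, the 90 min arrays lie just under vehicle at a difference of -0.16 that was not called (adjusted p = 0.520), and the 24 h arrays lie far below all of them. EXO1 fell by 2.35 ± 0.10 at 24 h, or 5.10-fold (adjusted p = 4.05e-09). Nearly all of that lay in the step from 4 h to 24 h (-2.24, adjusted p = 2.24e-08), and the difference at 4 h was -0.11 (adjusted p = 0.367).

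RAD50, the ATPase of the complex it forms with MRE11 and NBN at broken ends, fell early instead. It read 6.97, 6.85 and 6.75 in vehicle, 6.96, 6.59 and 6.62 at 90 min, 6.05, 5.44 and 6.26 at 4 h and 5.87, 5.92 and 5.88 at 24 h. The low replicate 2 widens the 4 h group, whose 3 arrays still lie below vehicle. Differences were -0.94 ± 0.19 at 4 h (adjusted p = 0.00314) and -0.97 ± 0.19 at 24 h (adjusted p = 0.00129).

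BLM, the RecQ helicase that dissolves joint molecules, fell in steps. Its arrays were at 9.49, 9.36 and 9.41 in vehicle, 9.27, 9.14 and 9.28 at 90 min, 9.00, 8.60 and 9.01 at 4 h and 8.64, 8.21 and 8.57 at 24 h. Each treated group lies below vehicle, and the 4 h and 24 h groups overlap in 1 array. The difference was -0.55 ± 0.13 at 4 h (adjusted p = 0.00817) and -0.95 ± 0.13 at 24 h (adjusted p = 6.81e-05), while the step between them (-0.40, adjusted p = 0.0418) was lost in 10 of the 12 fits that left out 1 array.

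The partners of RAD50 went different ways. MRE11, the nuclease, was lower at every time, by -0.46, -0.49 and -0.38 (each ± 0.09); the 90 min call was lost with the mean of its probe sets (adjusted p = 0.217), and the 24 h call with that mean and after quantile normalization (adjusted p of up to 0.164). NBN, which recruits ATM, was at 9.61 in vehicle, 9.94 at 90 min (0.33, adjusted p = 0.0587), 9.70 at 4 h and 9.06 at 24 h, where it had fallen by -0.55 ± 0.10 (adjusted p = 0.00057).

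**Figure D2:**
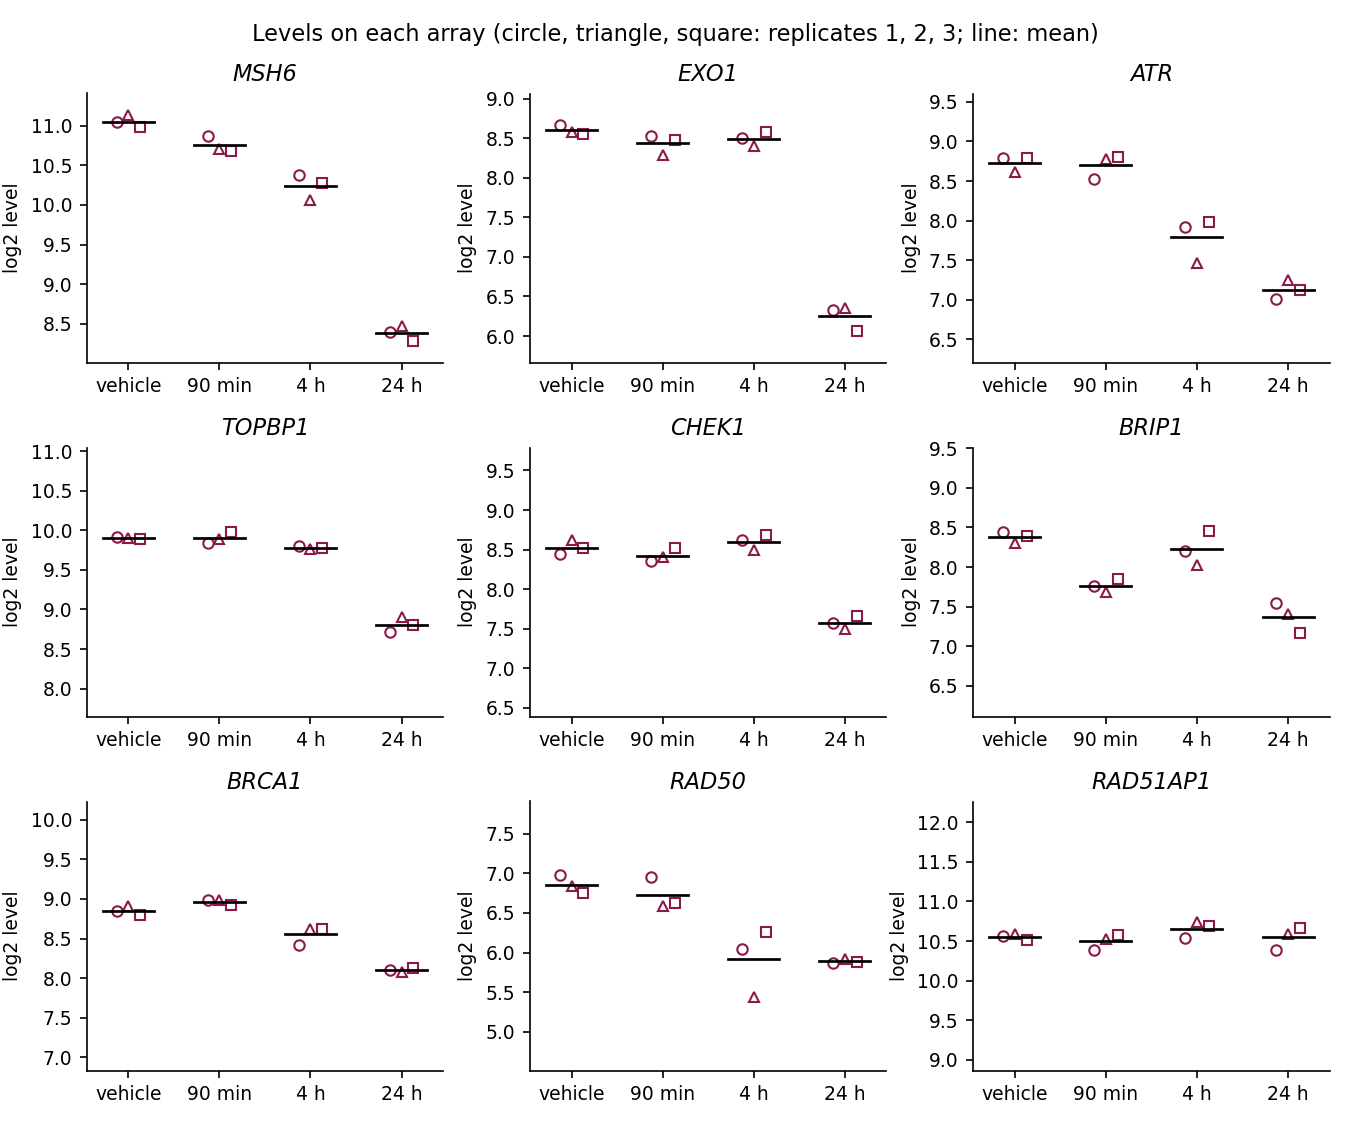
Deposited log2 level on each of the 12 arrays for 9 members; circle, triangle and square are replicates 1, 2 and 3 of a group and the line is the group mean, with a separate range on each vertical axis. EXO1 stays between 8.29 and 8.66 on the first 9 arrays and lies between 6.07 and 6.35 at 24 h, while ATR and RAD50 are already lower at 4 h and RAD51AP1 stays between 10.38 and 10.74.

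Of the 7 measured genes of the Fanconi core and its anchor, 5 were lower at 24 h, 4 of them by at least 2-fold, with a median of -1.12; at 4 h 2 were lower. FANCL, the ubiquitin ligase of the core complex, stood at 9.25, 9.39 and 9.37 in vehicle, 8.90, 9.06 and 9.17 at 90 min, 8.96, 9.00 and 9.00 at 4 h and 8.35, 8.10 and 8.18 at 24 h. The 90 min and 4 h groups overlap each other below vehicle, and 24 h lies lower still. The differences were -0.35 ± 0.09 at 4 h (adjusted p = 0.0130) and -1.13 ± 0.09 at 24 h (adjusted p = 5.74e-07). The 4 h call was lost without vehicle replicate 3 (adjusted p = 0.0539) and after quantile normalization.

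FANCB, a scaffold of the same complex, had the widest spread of the members. It read 6.91, 5.90 and 6.60 in vehicle, 6.57, 5.66 and 5.89 at 90 min, 5.90, 5.36 and 6.09 at 4 h and 4.31, 5.15 and 5.30 at 24 h. Only the 24 h arrays lie wholly below vehicle. Its fall at 24 h was -1.55 ± 0.34, or 2.93-fold (adjusted p = 0.00275), and the step from 4 h to 24 h was not called (-0.87, adjusted p = 0.0950).

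FANCF, an adaptor within the core, began near low signal. Its level was 4.60, 4.99 and 4.50 in vehicle, 3.83, 4.02 and 4.13 at 90 min, 3.26, 3.14 and 3.24 at 4 h and 3.49, 3.29 and 3.30 at 24 h. The treated arrays all lie below vehicle, and the means of all 3 treated groups (3.99, 3.21 and 3.36) are in low signal, where the true change may be larger than the one read. Differences were -0.70 ± 0.13 at 90 min (adjusted p = 0.00559), -1.48 ± 0.13 at 4 h (adjusted p = 8.73e-06) and -1.33 ± 0.13 at 24 h (adjusted p = 4.91e-06). The other probe set of FANCF, with a mean of 3.30, differed by -1.85, -2.11 and -2.01 at the same times, all called lower.

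FANCE, which binds FANCD2 for the core, and FANCG were lower at 24 h by -1.12 ± 0.11 and -0.65 ± 0.11, and neither was called at 4 h (-0.14 in each). FANCC, the partner of FANCE, and FANCM, the translocase that anchors the core on DNA, were not called: their 24 h differences were 0.19 (95% interval -0.16 to 0.54) and -0.16 (-0.44 to 0.12).

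FANCI, the substrate of the core complex, was measured without its partner. It read 10.46, 10.30 and 10.15 in vehicle, 10.47, 10.42 and 10.35 at 90 min, 10.05, 10.16 and 10.29 at 4 h and 10.28, 10.26 and 10.27 at 24 h. The 24 h arrays lie within the vehicle range. The difference at 24 h was -0.04, with a 95% interval of -0.22 to 0.14. One of its other 2 probe sets did fall at 24 h (-0.65 ± 0.14, adjusted p = 0.00329 over all probe sets with 1 symbol), and the other did not pass (-0.01), so the probe sets of FANCI disagree.

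The 5 checkpoint genes were all lower at 24 h, from CHEK1 at -0.95 to ATR at -1.61, with a median of -1.01; at 4 h ATM, ATR and CHEK2 were lower. ATR, the kinase that responds to single-stranded DNA at stalled forks, stood at 8.79, 8.61 and 8.79 in vehicle, 8.53, 8.78 and 8.80 at 90 min, 7.92, 7.46 and 7.98 at 4 h and 7.01, 7.25 and 7.12 at 24 h. Vehicle and 90 min overlap, 4 h lies below both, and 24 h lies below 4 h. The differences were -0.03 at 90 min (adjusted p = 0.949), -0.94 ± 0.14 at 4 h (adjusted p = 0.000327) and -1.61 ± 0.14 at 24 h, or 3.04-fold (adjusted p = 1.15e-06). Both steps were called: -0.91 from 90 min to 4 h (adjusted p = 0.00103) and -0.66 from 4 h to 24 h (adjusted p = 0.00307).

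TOPBP1, the activator of ATR, was called at 24 h and not before. Its level was 9.91, 9.90 and 9.90 in vehicle, 9.84, 9.89 and 9.98 at 90 min, 9.80, 9.76 and 9.77 at 4 h and 8.72, 8.90 and 8.81 at 24 h. The 4 h arrays lie just under vehicle, at a difference of -0.12 that was not called (adjusted p = 0.116), and the 24 h arrays lie well below. The fall at 24 h was -1.09 ± 0.06 (adjusted p = 4.48e-08).

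CHEK1, the kinase downstream of ATR, had the same late course: -0.10 at 90 min, 0.07 at 4 h, neither called, and -0.95 ± 0.09 at 24 h (adjusted p = 2.16e-06), with a step of -1.02 from 4 h to 24 h. CHEK2, the kinase downstream of ATM, fell early. It read 8.52, 8.49 and 8.66 in vehicle, 8.11, 7.87 and 8.13 at 90 min, 7.73, 7.05 and 7.83 at 4 h and 7.68, 7.47 and 7.48 at 24 h. The 4 h and 24 h groups overlap below the 90 min group. Differences were -1.02 ± 0.17 at 4 h (adjusted p = 0.000933) and -1.01 ± 0.17 at 24 h (adjusted p = 0.000415). Without the low 4 h replicate 2 the difference at 4 h was -0.78.

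ATM, the kinase that responds to double-strand breaks, was lower at each time, by -0.41, -0.53 and -0.98 (each ± 0.11). The 90 min call (adjusted p = 0.0347) was lost in 5 of the 12 fits that left out 1 array, with an adjusted p of up to 0.161, namely without vehicle replicate 2 or 3 or any 1 of the 90 min arrays. It was also lost with the mean of probe sets and with array medians subtracted.

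MSH6, which recognises mismatches in new DNA, changed most of the members. It stood at 11.04, 11.13 and 10.99 in vehicle, 10.87, 10.71 and 10.68 at 90 min, 10.38, 10.07 and 10.28 at 4 h and 8.40, 8.47 and 8.28 at 24 h. No array of a later group reaches the range of an earlier one. The difference was -0.30 ± 0.09 at 90 min, which was not called (adjusted p = 0.0546), -0.81 ± 0.09 at 4 h (adjusted p = 3.80e-05) and -2.67 ± 0.09 at 24 h, or 6.36-fold (adjusted p = 5.32e-10). The steps from 90 min to 4 h (-0.51, adjusted p = 0.00265) and from 4 h to 24 h (-1.86, adjusted p = 2.96e-08) were both called.

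Of the members, 17 had more than 1 probe set. Among their 37 probe sets with a mean of at least 4, 25 were lower at 24 h and 0 higher, and among the 20 under 4, 4 were lower and 1 higher. These counts include the chosen probe sets, so only the rest give a further reading, and the rest were not counted alone. The share over all probe sets was not counted. Over genes with a mean of at least 4, 37.1% were lower at 24 h. The next brightest probe sets of MSH6, ATR and BRCA1 fell by more than the chosen ones, at -3.29, -2.38 and -1.56, and probe set 3 of ATM, counted by brightness, at -1.82. RAD50 was less uniform: its probe set 2 differed by -0.26 (adjusted p = 0.433) and its probe set 3 by -0.81 (adjusted p = 0.00357). As given above, the probe sets of FANCI disagree, and MRE11 lost its 90 min and 24 h calls with the mean of its probe sets.

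**Figure D3:**
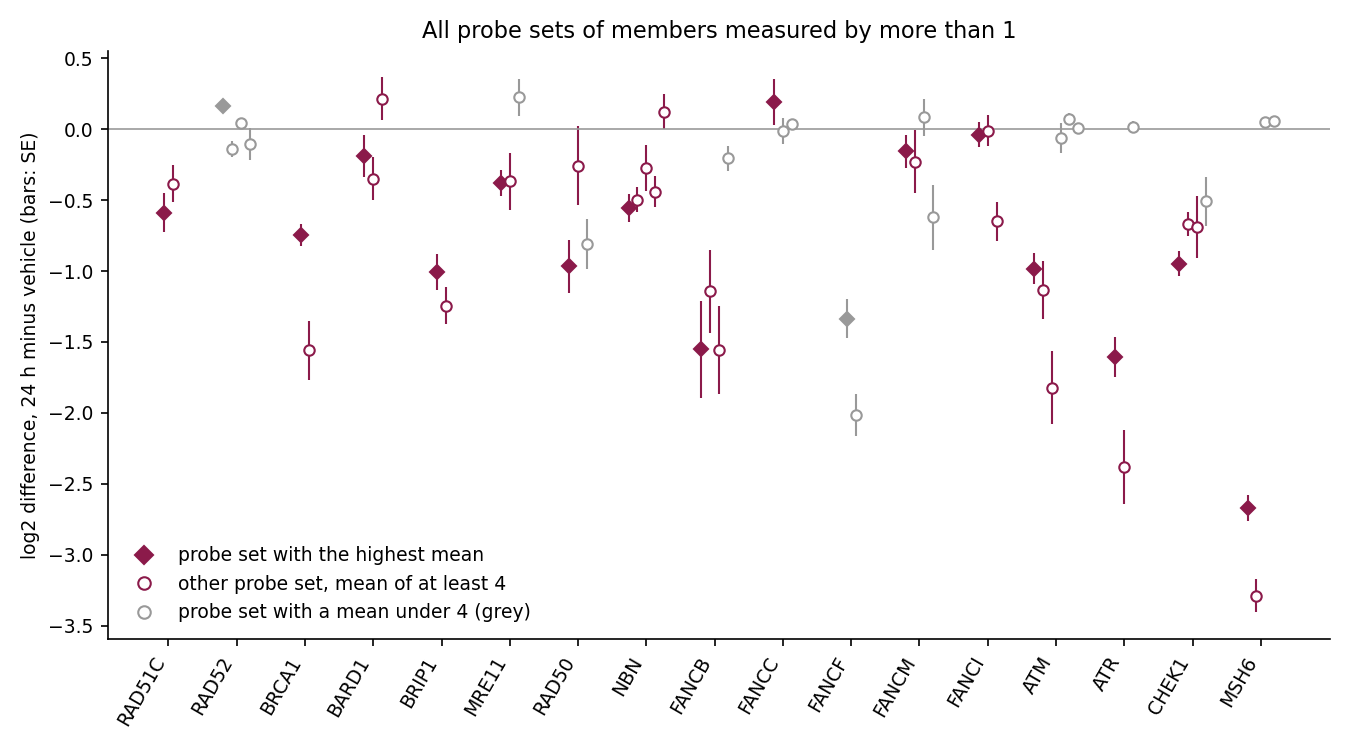
Difference between 24 h and vehicle, on the log2 scale with SE, for every probe set of the 17 members that have more than 1; filled diamonds are the highest-mean probe sets, open circles the others, and grey symbols have a mean under 4. Both probe sets of MSH6 above 4 lie under -2.6 while its grey ones lie at 0.05, and 1 of the 3 of FANCI lies apart from the others.

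Other genes of these pathways, taken as lists chosen with earlier results of these data known, are given for comparison; differences between lists were not tested. Of 25 other homologous recombination genes 12 were lower and 3 higher, with a median of -0.37. Those that fell furthest were RAD51D, a strand exchange factor, at -1.89 ± 0.30 (ending in low signal), WRN, a RecQ helicase, at -1.81 ± 0.17, SPIDR, a scaffold protein of recombination, at -1.72 ± 0.15 and DNA2, a resection nuclease, at -1.60 ± 0.13. Of 28 other checkpoint and damage signalling genes 17 were lower and 2 higher, with a median of -0.48. Here TIPIN, which protects stalled forks, fell by 1.91 ± 0.07, CDC25A, a phosphatase that drives entry into S phase, by 1.87 ± 0.19 and ABRAXAS1, a BRCA1 partner, by 1.76 ± 0.14. CDC25B, a phosphatase that drives entry into mitosis, rose by 2.11 ± 0.08.

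Of 15 other Fanconi pathway genes 5 were lower and 3 higher, with a median of 0.01. The core complex subunit FAAP100 was at -0.96 ± 0.17, the translesion synthesis genes REV1 and REV3L at -0.89 ± 0.07 and -0.75 ± 0.10, and CENPX, a partner of FANCM, at -0.65 ± 0.10, all 4 called lower. Of 6 other mismatch repair genes 3 were lower, with PMS1 at -2.79 ± 0.11, the clamp loader RFC1 at -1.54 ± 0.09 and PCNA at -0.27 ± 0.07. Of 10 end joining genes, the other route for double-strand breaks, 4 were lower (40%) and 2 higher. This share lower is also near 37.1%, and 17.8% of all genes were higher. PRKDC, the DNA-dependent kinase, fell by 0.76 ± 0.07 and the Ku subunit gene XRCC6 by 0.64 ± 0.08, the polymerase gene POLM was called lower at -0.93 within low signal, and the ligase LIG4 rose by 0.73 ± 0.12 after a fall at 4 h (-0.49, adjusted p = 0.0101).

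**Figure D4:**
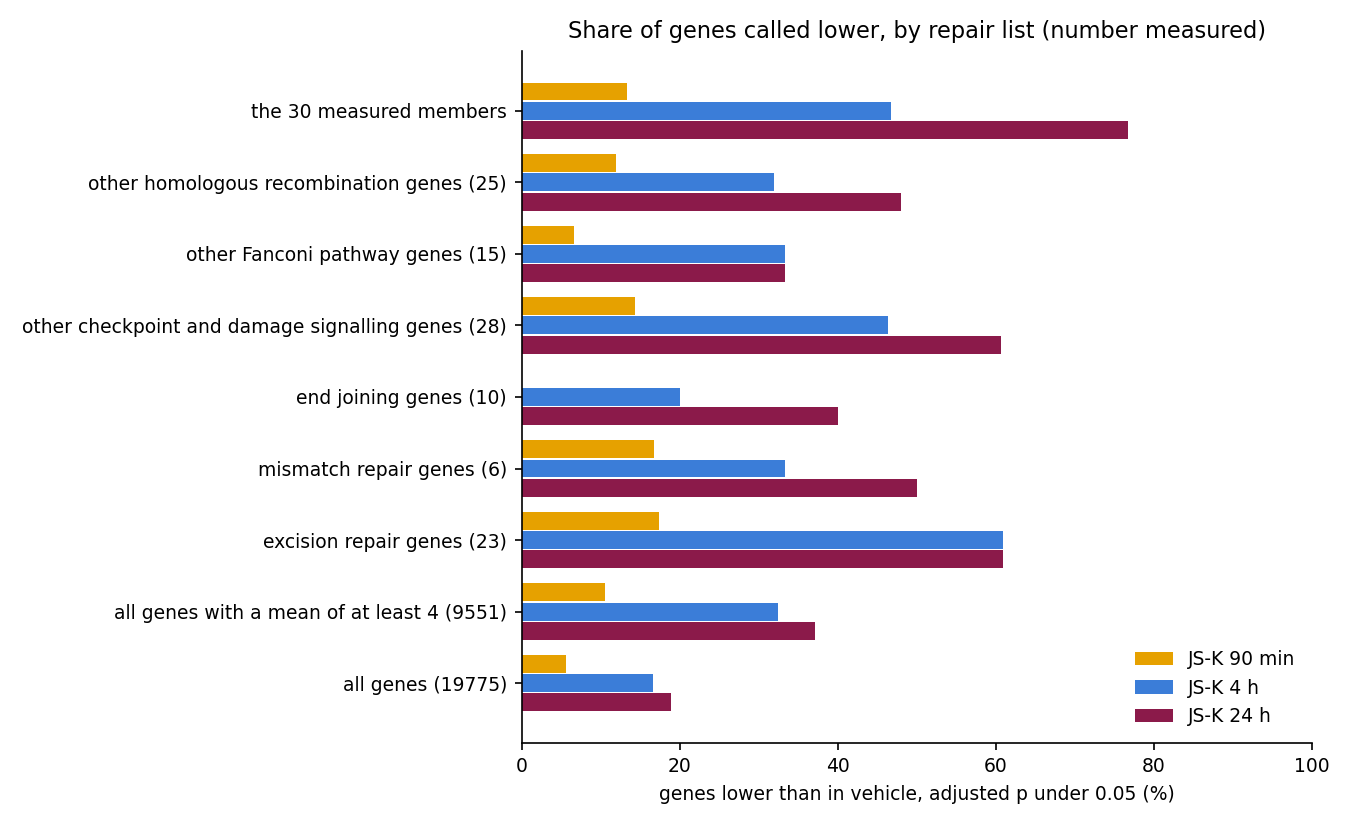
Share of genes called lower than vehicle (adjusted p under 0.05) at 90 min, 4 h and 24 h, in percent, for the 30 members, 6 other repair lists, all genes with a mean of at least 4 and all genes; the number measured stands beside each name. The members reach 76.7% at 24 h, against 37.1% of the genes with a mean of at least 4 and 18.9% of all genes.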

How the data were processed

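RNA from 12 U937 cultures in 4 groups of 3 was measured on 3′ expression arrays. Per the labels, RNA was labelled from random hexamers with a whole-transcript kit, and how that kit was used with this array is not stated. The authors deposited 1 log2 value per probe set and array, made with GCRMA in Affymetrix Expression Console per the submitters' processing notes, with no version given. GCRMA corrects background from probe sequence and normalizes between arrays, so low values lie near a floor. These values were used as deposited, without further normalization.

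The table has 54675 probe sets: 41097 name 1 symbol, of which 41043 matched RefSeq by gene identifier, 1801 name several and 11777 name none. Where a gene had several probe sets (10523 genes), the brightest on average was taken. Group differences come from limma 3.58.1 under R 4.3.3 (all 12 arrays, trend of the spread on the mean, 8 residual and 3.97 prior degrees of freedom), with Benjamini-Hochberg adjustment over 19775 genes per comparison. Called means an adjusted p under 0.05. Intervals are 95% intervals of that fit. Other probe sets were fitted together with all 41097. Tested on simulated data for the comparison of 24 h with vehicle over 19775 genes, 88 of 100 simulated 2-fold changes and 100 of 100 simulated 4-fold changes were called, along with 13 unchanged genes.

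The members and lists were chosen with earlier results of these data known. Values on every array are given for up to 3 called members per role with the largest difference from vehicle and for the 2 steadiest members with signal in every group, and up to 4 called genes of each other list are named by size at 24 h. Alternatives were another spread model, a filter on dim genes, the mean of probe sets, quantile normalization, subtraction of array medians, a replicate block, 6 arrays alone and leaving out each of the 12 arrays. Correlations of deviations from group means were -0.15 to 0.30 for arrays with the same replicate number and -0.31 to 0.20 for others. For vehicle with 90 min they were 0.26, 0.23 and 0.12 at the same number and -0.31 to 0.15 otherwise. For 90 min with 4 h they were 0.09, 0.30 and 0.19, and -0.27 to 0.08 otherwise. The labels do not say that a number is a shared culture, so the numbers were not taken as pairs. Counts with a replicate block are given below. No 2 arrays held identical values. The number of arrays limits the precision.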

Additional observations from a re-analysis of the deposited data

Results flagged for a closer look

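In 15 members the difference from vehicle at 24 h departed from that at 4 h in the limma fit (adjusted p under 0.05 over all genes): RAD54L by -0.36, RAD54B by -0.60, BRCA1 by -0.45, BRIP1 by -0.85, NBN by -0.64, EXO1 by -2.24, BLM by -0.40, FANCE by -0.98, FANCG by -0.51, FANCL by -0.78, ATM by -0.45, ATR by -0.66, CHEK1 by -1.02, TOPBP1 by -0.97 and MSH6 by -1.86. In 8 members the difference at 4 h departed from that at 90 min: PALB2 by -0.42, RAD51C by -0.50, BRCA1 by -0.41, BRIP1 by 0.46, RAD50 by -0.81, FANCF by -0.78, ATR by -0.91 and MSH6 by -0.51. The vehicle arrays cancel in these differences, which equal the steps between the 2 times.

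Control probe sets outside the comparisons also stood above vehicle. The poly-A spike-in probe sets were at 7.02 at 4 h and 8.47 at 24 h against 3.04 in vehicle. The hybridization spike-in probe sets were at 11.70 at 24 h against 9.96, and the probe sets for 28S ribosomal RNA at 8.03 against 6.59.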

How the results depend on the processing

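The calls at 24 h and in the step from 4 h to 24 h held best, and those of members higher than vehicle held least. Leaving out 1 array at a time gave 22 to 23 members lower and 1 higher at 24 h, 11 to 14 lower and 0 to 1 higher at 4 h, 3 to 6 lower and 0 to 1 higher at 90 min, 4 to 8 lower and 0 to 1 higher from 90 min to 4 h, and 13 to 15 lower and 0 higher from 4 h to 24 h. Of the called members, 23 of 24 kept the call in all 12 of these fits at 24 h, 10 of 15 at 4 h, 3 of 4 at 90 min, 4 of 8 from 90 min to 4 h and 13 of 15 from 4 h to 24 h; where an arm had 2 arrays, the spread was pooled over groups. Counts of members lower changed by more than 1.5 times in 2 other settings: 2 in place of 4 at 90 min with the mean of probe sets, and 4 in place of 7 from 90 min to 4 h with 6 arrays alone. The count higher at 90 min was 1 in place of 0 with the lowest genes left out, with quantile normalization, with the replicate block and with 6 arrays alone. At 4 h it was 0 in place of 1 in every setting other than the mean of probe sets, where the 1 was a member other than RAD52. At 24 h it was 0 in place of 1 with the lowest genes left out, the mean of probe sets, quantile normalization or array medians subtracted. From 90 min to 4 h it was 2 in place of 1 after quantile normalization and 0 with array medians subtracted or 6 arrays alone. The causes were not tested. Subtracting array medians moved the median difference of all genes at 4 h from 0.06 to -0.04.

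With the replicate block, for numbers that were not taken as pairs, 5 members were lower and 1 higher at 90 min, 15 and 0 at 4 h, 23 and 1 at 24 h, 9 and 1 from 90 min to 4 h, and 15 and 0 from 4 h to 24 h. Signs reversed only in other probe sets of the same gene. Counted by brightness, probe set 3 of ATR (mean 2.37) read 0.058 at 4 h, 0.015 at 24 h and 0.063 from 90 min to 4 h. Probe sets 3 and 4 of MSH6 (means 2.57 and 2.41) read 0.079 and 0.090 at 4 h, 0.052 and 0.055 at 24 h and 0.061 and 0.077 from 90 min to 4 h, all in low signal. Probe set 3 of FANCI (mean 8.29) read -0.44 from 4 h to 24 h. Over the other values of single members and lists, 1652 kept direction and side of the threshold, 60 lost the call, 19 gained it and 14 counts moved by more than 1.5 times. Low signal limits FANCF, RAD52 and XRCC3.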

Other observations

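Excision repair genes, the 1 repair list not described above, fell in a large share as well. Of 23 measured, 14 were lower and 1 higher at 4 h, and 14 were lower and 3 higher at 24 h, with medians of -0.34 and -0.61, against 16.6% and 18.9% of all genes lower. UNG, the glycosylase that removes uracil from DNA, changed by -0.71 ± 0.12 at 4 h and by -3.56 ± 0.12 at 24 h, or 11.8-fold lower (limma adjusted p = 6.19e-10). APEX1, the endonuclease that cuts the abasic site UNG leaves, fell by 1.95 ± 0.09 at 24 h, NTHL1, a glycosylase for oxidised pyrimidines, fell by 1.66 ± 0.13 and the flap nuclease FEN1 fell by 1.28 ± 0.06. All 4 were also lower at 4 h.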
